A study of Mus musculus with 6 samples.

Results

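The genes of the C/EBP family were examined for chromatin that changed when 2 of them, Cebpa and Cebpb, were deleted. The members were Cebpa, Cebpb, Cebpd, Cebpe, Cebpg, Cebpz and Ddit3. Their neighbourhoods were taken as the GENCODE M21 gene body extended by 100 kb on each side, and any region of the deposited list of changed regions that overlapped such a window by at least 1 bp was a neighbourhood region. These windows held 21 of the 10016 listed regions, or 24 entries when the 3 regions shared by the adjoining Cebpa and Cebpg windows are counted under both genes. Accessibility was measured by ATAC-seq, in which the Tn5 transposase inserts adapters into open DNA.

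All cells were mouse fetal liver cells transformed with MLL-ENL, a leukaemia fusion oncogene introduced by retrovirus, and were grown in IL-3 at 10 ng/ml. The 6 samples formed 3 groups of 2. WT was wild-type per the labels, which name no exogenous gene, and per the study came from animals with floxed Cebp alleles before excision. The dKO group had the genotype Cebpa KO, Cebpb KO after excision by Cre recombinase and carried exogenous GFP. The dKO-LAP* group had the same double deletion with GFP and the rat C/EBPβ isoform LAP*, and was not analysed here. The dKO lines were rare surviving subclones, so that genotype, vector and clone cannot be told apart. Nothing in the labels says that the replicates were separate cultures. Libraries were made from 50000 sorted cells and sequenced to an average of 25 M reads per the labels, and the depth of single libraries was not used here. The list gives 1 log2 mean of normalised reads for WT and 1 for dKO at each region, with no value per library. No value below therefore carries a replicate error, and no test was run on any difference. A region is called higher or lower because it passed the authors' corrected P-value threshold of 0.05, and the change is the dKO log2 mean minus the WT log2 mean. In these bulk samples, more cells with an open region and a more open region in each cell cannot be told apart. The myeloid identity of the cells was not checked, since the list holds changed regions only.

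C/EBP proteins are basic leucine zipper (bZIP) transcription factors that bind DNA as dimers and, in the blood system, drive granulocyte and macrophage development. C/EBPα starts the granulocyte programme, C/EBPβ acts in macrophages and in emergency granulopoiesis, and C/EBPε acts late, in granule gene expression. C/EBPδ is an inflammation-induced member. C/EBPγ lacks an activation domain and works through its partners, and Ddit3 (CHOP) is a stress-induced member that often keeps its partners from the usual sites. Cebpz encodes a CCAAT-binding protein that carries the family name but has no leucine zipper.

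Of the 21 neighbourhood regions, 16 were higher and 5 were lower in dKO. Every member had at least 1 listed region in its window, while 63.5% of all 21728 protein-coding genes did. Within 10 kb of the gene, 6 of the 7 members had one, against 25.0% of protein-coding genes. For Cebpa and Cebpb these were the regions on the deleted genes themselves, and of the 5 intact members 4 had one. The 2 deleted genes carried the deepest falls. The named sequences here come first because the results turn on them: the flanks upstream of the 2 deleted genes, which lie under regions that fell, the regions off the exons of these genes that rose by the most at Cebpa and Cebpb, and the region that fell at Cebpd. All are on the plus strand of mm10 and are written in lower case. The flanks of 250 bases are from RefSeq on GRCm38.p6, and the others are the central 300 bases of each region.
Cebpa upstream flank, chr7:35119043-35119292: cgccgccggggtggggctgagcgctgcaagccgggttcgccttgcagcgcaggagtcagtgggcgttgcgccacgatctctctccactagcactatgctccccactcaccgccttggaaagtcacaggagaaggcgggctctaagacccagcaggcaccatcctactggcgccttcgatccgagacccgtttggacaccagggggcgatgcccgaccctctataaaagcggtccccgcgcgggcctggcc
Cebpb upstream flank, chr2:167688665-167688914: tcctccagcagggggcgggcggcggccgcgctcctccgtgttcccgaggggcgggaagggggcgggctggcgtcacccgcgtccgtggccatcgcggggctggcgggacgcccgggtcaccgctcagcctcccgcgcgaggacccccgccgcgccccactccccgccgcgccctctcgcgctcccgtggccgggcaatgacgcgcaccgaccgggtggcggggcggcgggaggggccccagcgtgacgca
Cebpa +20.8 kb, chr7:35139893-35140192: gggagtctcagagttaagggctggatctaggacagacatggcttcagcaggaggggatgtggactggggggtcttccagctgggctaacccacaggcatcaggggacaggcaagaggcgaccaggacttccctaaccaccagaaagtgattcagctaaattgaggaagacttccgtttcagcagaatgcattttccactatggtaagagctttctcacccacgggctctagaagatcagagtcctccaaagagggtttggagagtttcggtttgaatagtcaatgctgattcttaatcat
Cebpb +24.5 kb, chr2:167713284-167713583: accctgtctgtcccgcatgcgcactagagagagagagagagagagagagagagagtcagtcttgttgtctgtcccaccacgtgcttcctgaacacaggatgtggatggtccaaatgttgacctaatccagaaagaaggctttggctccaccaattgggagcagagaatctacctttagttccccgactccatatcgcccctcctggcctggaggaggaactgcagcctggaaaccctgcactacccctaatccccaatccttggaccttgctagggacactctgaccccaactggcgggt
Cebpb +35.1 kb, chr2:167723839-167724138: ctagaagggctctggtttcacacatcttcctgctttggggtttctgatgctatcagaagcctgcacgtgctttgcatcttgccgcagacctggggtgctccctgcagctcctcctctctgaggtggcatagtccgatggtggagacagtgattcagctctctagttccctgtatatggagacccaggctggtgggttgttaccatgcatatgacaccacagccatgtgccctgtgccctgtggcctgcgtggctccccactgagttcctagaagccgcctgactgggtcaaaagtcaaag
Cebpb +58.7 kb, chr2:167747489-167747788: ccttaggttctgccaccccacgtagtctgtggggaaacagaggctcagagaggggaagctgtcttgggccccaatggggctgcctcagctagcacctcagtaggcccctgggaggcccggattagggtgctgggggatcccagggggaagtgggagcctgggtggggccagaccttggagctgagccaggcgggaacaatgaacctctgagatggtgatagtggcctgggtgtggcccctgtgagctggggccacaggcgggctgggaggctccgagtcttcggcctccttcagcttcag
Cebpd +61.2 kb, chr16:15948350-15948649: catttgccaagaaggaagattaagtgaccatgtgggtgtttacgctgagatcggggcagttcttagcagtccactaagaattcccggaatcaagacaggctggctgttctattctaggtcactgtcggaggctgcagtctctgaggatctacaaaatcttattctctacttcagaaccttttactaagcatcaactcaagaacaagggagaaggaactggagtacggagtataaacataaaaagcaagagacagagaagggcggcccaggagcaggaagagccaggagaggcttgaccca

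None of these sequences holds the C/EBP string, which is TTACNNAA or TTGCNNAA on either strand. Most sequences of these kinds lack the string. It was found in 16.5% of all RefSeq upstream flanks of the same length. Within the central 200 bp it was found in 20.1% of all listed rises and in 40.8% of all listed falls. The printed sequences are few and were picked by place and change, so nothing is concluded from the absence of the string.

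Cebpa (ENSMUSG00000034957.10, chr7:35119293-35121928, plus strand) had 3 listed regions, of which 1 was higher and 2 were lower. The region over its start site (chr7:35118826-35119650, 825 bp) stood at 9.99 on the log2 scale in WT but at -0.15 in dKO, a drop from 1020 to 0.901 normalised reads. In WT this was a level at or above that of 99.9% of listed regions. The dKO value was the lowest in the list, and set against a floor of 3 reads per library the region was at least 376-fold lower in dKO. Of its length, 467 bp (56.6%) lay upstream of the gene, 232 bp were coding and 126 bp were untranslated exon, and the antisense gene Gm45091 overlaps it. The ends of the floxed segment were not mapped on the genome here, so that removed DNA and lost accessibility were not separated in this region. A region 20.8 kb downstream of the start (chr7:35139879-35140207, 329 bp) changed the other way, from 1.85 in WT to 5.04 in dKO, a change of 3.19 or 9.13-fold. It lies in an intron of the long noncoding RNA gene Gm35665. In normalised reads this was 3.61 in WT and 32.9 in dKO, and 92.4% of all listed rises were smaller. It was the largest rise in the neighbourhoods. The WT level stood only just above the floor, at the 3.7th percentile of WT levels in the list.

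Cebpb (ENSMUSG00000056501.3, chr2:167688915-167690418, plus strand) had 6 listed regions, of which 2 lay within 10 kb. The 2 regions on the gene fell and the 4 away from it rose. Of protein-coding genes, 3.36% had 6 or more. Without the 2 on the deleted gene, 4 remained, a number that 12.0% reached or passed, as for Ddit3. For their own counts the share was 6.43% at Cebpg, 22.0% at Cebpa and 39.1% at Cebpd, Cebpe and Cebpz. The start site region (chr2:167688638-167689380, 743 bp) went from 8.60 in WT to 3.37 in dKO, a change of -5.23, or from 388 to 10.3 normalised reads. Of it, 277 bp (37.3%) lay upstream of the gene. The region further into the gene (chr2:167689715-167690187, 473 bp) went from 7.38 to -0.15, again the lowest value in the list, and was at least 61.6-fold lower in dKO. It also overlaps an exon of Tmem189, whose start site lies in it. The dKO cells lack Cebpb DNA by design, and a genotyping primer of the study for this gene matches bases of the printed flank. In both Cebpb regions, too, removed DNA and lost accessibility were not separated. These 2 regions and the Cebpa start site region were among the 36 deepest falls of 3981.

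The rises at Cebpb lay in a row downstream of the gene. A region 24.5 kb from the start (chr2:167713241-167713627) went from 4.21 in WT to 6.20 in dKO, a change of 1.99. A region at 35.1 kb (chr2:167723731-167724246) went from 4.87 to 6.84, a change of 1.97. Both lie in introns of the long noncoding RNA gene A530013C23Rik. A region at 58.7 kb (chr2:167747407-167747871), which is intergenic, went from 3.67 to 6.15, a change of 2.48. These 3 were 3.97-fold, 3.92-fold and 5.58-fold higher in dKO and exceeded 67.5%, 66.6% and 81.5% of all listed rises. The other rise lay far upstream, with its centre at -98.3 kb (chr2:167590473-167590810), inside Gm11476, and was smaller, from 73.5 normalised reads in WT to 128 in dKO, a log2 change of 0.80. On chromosome 2 as a whole, 345 of 621 listed regions (55.6%) were higher in dKO.

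**Figure D1:**
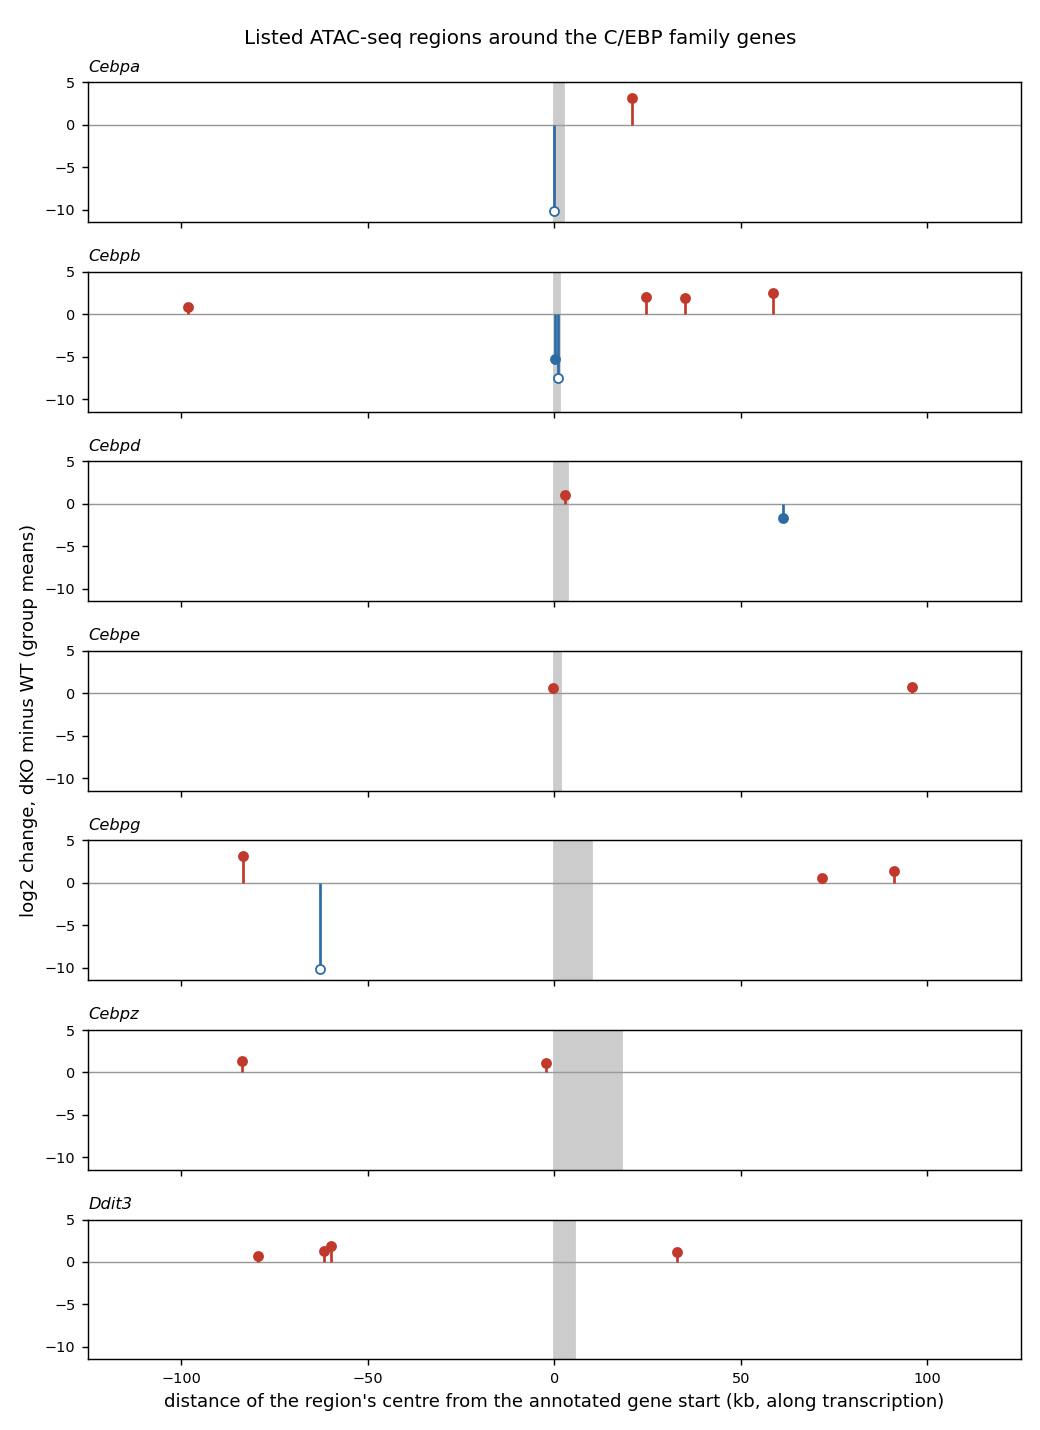
Listed regions around each of the 7 genes, with the distance of the region centre from the gene start in kb on the horizontal axis, downstream of the gene to the right, and the log2 change (dKO minus WT) on the vertical axis. Each point is 1 region (red higher, blue lower, open where dKO was under the floor of 3 reads per library), grey marks the gene body, 20 of the 21 regions are drawn, and those shared by the Cebpa and Cebpg windows appear in both panels. The falls at the Cebpa and Cebpb start sites stand beside rises of up to 3.19 further out. The deepest, drawn at -10.14 at Cebpa, ends under the floor, where its bound is -8.56.

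Cebpe (ENSMUSG00000052435.7, chr14:54710360-54712174, minus strand) had 2 listed regions, both higher in dKO. One covers its start site (chr14:54711954-54713185) and at 1232 bp was the longest in the neighbourhoods, with 1011 bp (82.1%) upstream of the gene, 216 bp in untranslated exon and 5 bp coding. Its log2 mean rose from 7.63 in WT to 8.27 in dKO, which is from 198 to 309 normalised reads, a change of 0.64 or 1.56-fold. Of all listed rises, 2.22% were smaller, so that this was among the smallest changes listed. Per kb of region the mean was 161 reads in WT and 251 in dKO. The WT level of this region was already at or above that of 94.4% of listed regions, for which the median WT level was 5.31. The other region (chr14:54616139-54616658) lies 95.8 kb downstream of the start, over a coding exon of Psmb5, a proteasome subunit gene, and 127 bp from the start of the microRNA gene Mir686. It went from 6.67 to 7.38, a change of 0.71. No listed region in this window passed a change of 1, and 8 other protein-coding genes share the window. On chromosome 14, 232 of 408 listed regions (56.9%) were higher.

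Cebpd (ENSMUSG00000071637.5, chr16:15887286-15891031, plus strand) had 2 listed regions that moved in opposite directions. One lay wholly in the untranslated exon sequence of the gene, 2.9 kb from its start (chr16:15889983-15890293, 311 bp), and went from 6.20 in WT to 7.24 in dKO, a change of 1.04 or 2.06-fold. The gene Spidr, which acts in DNA repair, overlaps the same DNA. The other lay 61.2 kb downstream of the start (chr16:15948199-15948800, 602 bp), in an intron of Spidr, and went from 7.10 to 5.38, a change of -1.72, with the dKO level at 0.304 of the WT level. Among annotated start sites the one nearest to it was that of Cebpd, 59783 bp away. This fall stood on a chromosome where 338 of 463 listed regions (73.0%) were higher in dKO.

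Cebpg (ENSMUSG00000056216.9, chr7:35046422-35056573, minus strand) had 5 listed regions in its window, of which 1 lay within 10 kb and none on its own body or start site. Of these, 3 were shared with Cebpa, among them the Cebpa start site region at -62.7 kb and the rise in Gm35665 at -83.5 kb. The 2 that were not shared lie in introns of Pepd, the gene of the dipeptidase prolidase, and were higher. The region at 71.8 kb (chr7:34984513-34985084) went from 7.16 to 7.79, a change of 0.63. The region at 91.2 kb (chr7:34965136-34965521), of which 76.2% is repeat sequence, went from 4.91 to 6.27, a change of 1.36. On chromosome 7, 247 of 538 listed regions (45.9%) were higher.

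Cebpz (ENSMUSG00000024081.9, chr17:78919006-78937066, minus strand) had 2 listed regions, both higher and neither within 1 kb of its own start sites. The nearer one, at -2.1 kb from the start (chr17:78939002-78939346), lies in an intron of Ndufaf7, a gene for assembly of respiratory complex I, and went from 4.82 to 5.92, a change of 1.10. The farther one, at -83.7 kb (chr17:79020235-79021215), covers the start of the kinase gene Prkd3 and went from 5.41 to 6.76, a change of 1.35. On chromosome 17, 325 of 471 listed regions (69.0%) were higher.

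Ddit3 (ENSMUSG00000025408.15, chr10:127290774-127296288, plus strand) had 4 listed regions, all higher and all more than 10 kb away from the gene. The region at -79.4 kb (chr10:127210899-127211891) covers the start of the lipid kinase gene Pip4k2c and went from 8.12 to 8.80, a change of 0.68. The regions at -61.7 kb and -59.9 kb lie in exons of the neuronal kinesin gene Kif5a and went from 4.66 to 5.96, a change of 1.30, and from 3.17 to 5.08, a change of 1.91. The region 32.8 kb downstream covers the start of Arhgap9, and went from 5.79 to 6.92, a change of 1.13. On chromosome 10, 629 of 767 listed regions (82.0%) were higher in dKO, the highest such share among the chromosomes of the members. With 11 other protein-coding genes in the window, these regions cannot be tied to Ddit3.

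**Figure D2:**
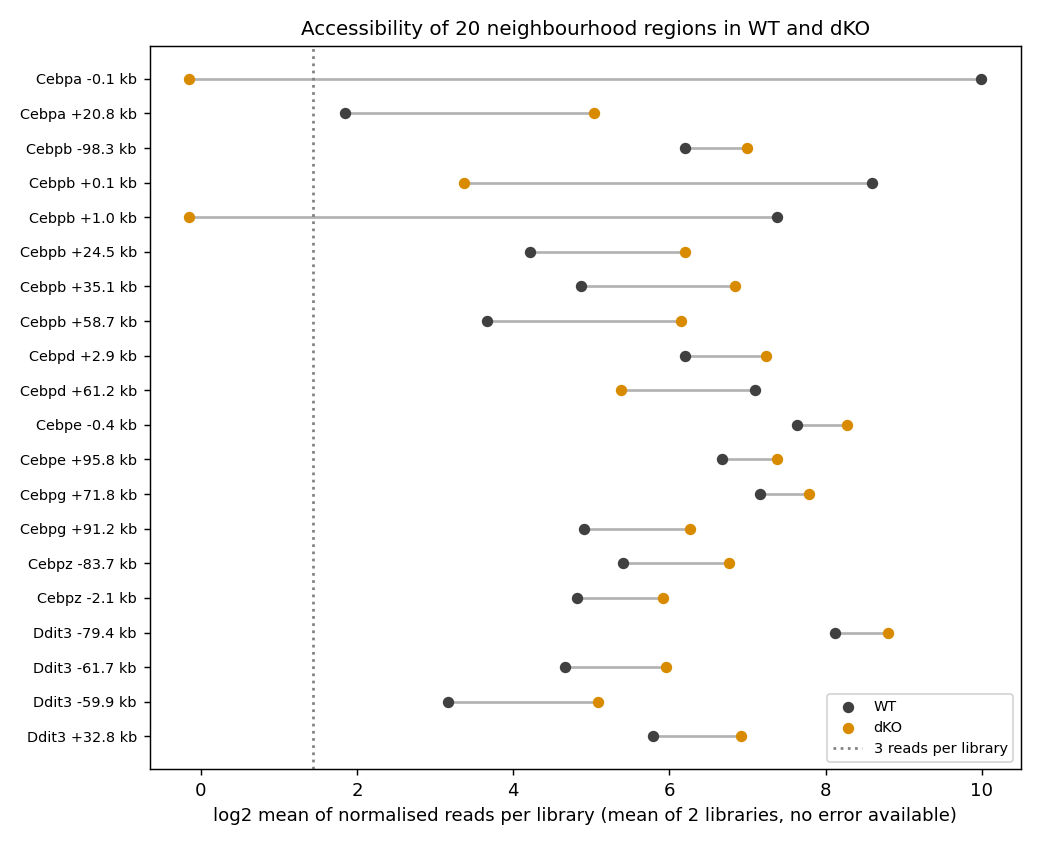
Log2 mean of normalised reads in WT and in dKO for 20 of the 21 neighbourhood regions, named by gene and distance of the region centre from the gene start in kb. The dotted line is the floor of 3 reads per library. Each pair of points is 1 region and no error can be drawn, since 1 mean per group was given. The Cebpa start site region and the region further into Cebpb end at -0.15 in dKO.

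Taking all 21 regions, 76.2% were higher in dKO, against 60.3% of the 10016 listed. With windows of 10 kb this did not hold, as 3 regions were higher and 4 lower. A rise of at least 1 on the log2 scale was seen at 11 of 21, against 49.6% of the list. A fall of at least 1 was seen at 5 of 21, against 35.9%. The median change was 1.04, close to the 0.98 over all listed regions. Set against that list median, 11 of the 21 changes were above 0.98 and 10 below it. The list holds no change between -0.51 and 0.49, so its median depends on the share of rises in it. Among the 16 rises the median was 1.21, against 1.58 over all 6035 listed rises, and 11 of the 16 were under that value. Among the 5 falls the median was -5.23, against -1.85. The 3 falls on Cebpa and Cebpb exons set that value. Off these exons, 18 regions remained, of which 16 (88.9%) were higher and 2 lower, with changes from -1.72 to 3.19 and a median of 1.11.

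The regions lay mostly at other features than the start sites of the family. By place, 10 of 21 lay within 1 kb of an annotated start site of any gene, 3 in exons, 7 in introns and 1 between genes. The nearest protein-coding start site was that of a member for 6 of 21. Away from the member's own start sites by over 1 kb and outside its exons were 16, with 14 higher and 2 lower. Together the windows form 6 separate stretches of 1.31 Mb with 16.1 listed regions per Mb, against 3.8 per Mb over the genome. Other genes share these windows, and their part in this density was not tested.

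**Figure D3:**
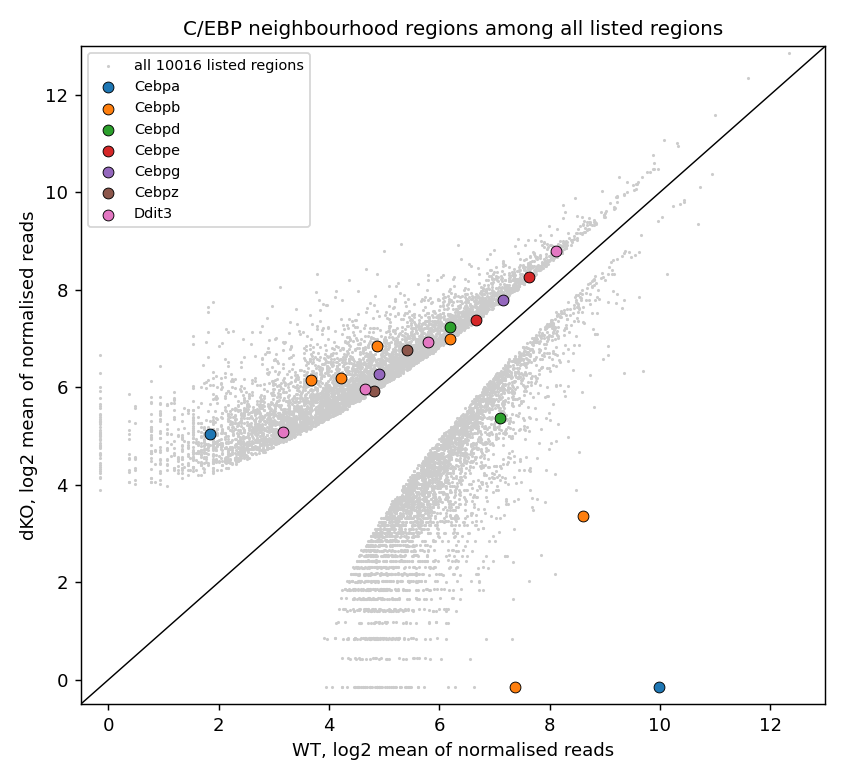
Log2 mean of normalised reads in WT (horizontal axis) and in dKO (vertical axis) for all 10016 listed regions (grey) and, coloured by gene, 20 of the 21 neighbourhood regions. Of the 16 rises, 11 were under the median listed rise of 1.58, and the regions on Cebpa and Cebpb sit at the far edge of the falls.

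The border of the windows is described by the farthest listed region inside and the nearest one outside, which for Cebpb and Cebpg lay at opposite ends of the window. The nearest region outside the Cebpa window, 134209 bp from the gene, changed by 0.63 and is the Cebpg region at 71.8 kb described above. For Cebpb these were 0.80 inside and 1.52 outside, at 161084 bp. For Cebpd they were -1.72 and 0.84, and for Cebpe 0.71 and 0.81. For Cebpg they were 3.19 and -5.29, the latter 390548 bp away. For Cebpz they were 1.35 and 2.70. For Ddit3 they were 0.68 and 1.92, with the outer region only just past the border at 105332 bp.

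Short sequence strings known as binding sites of myeloid factors were searched on both strands of every region. The C/EBP string, which the deleted factors bind, was found in 5 of 21 neighbourhood regions (23.8%), against 42.9% of all listed regions. The Wilson 95% interval of 10.6% to 45.1% covers counting error only. It takes the regions as independent draws, but they are all the listed regions of 6 stretches, so nothing is concluded from it. Of the 5, 4 were higher in dKO, at Cebpb -98.3 kb, Cebpg at 91.2 kb, Cebpz -2.1 kb and Ddit3 -61.7 kb, and 1 was lower. Over the list the string was commoner in falls than in rises, and 16 of the 21 regions were rises. Among rises alone it was found in 25.0% of the neighbourhood regions against 35.3% of all, and within the central 200 bp in 18.8% against 20.1%. The AP-1 string TGACTCA, for the Fos and Jun bZIP factors, was found in 0 of 21, against 25.3% of all listed regions and 36.1% of listed rises. The RUNX string AACCACA was likewise found in 0 of 21, against 19.3% of all and 22.3% of rises. The PU.1 string GAGGAAGT was found in 3 of 21 (14.3%), against 13.2%, and among rises in 12.5% against 18.0%. The start site regions of Cebpb and Cebpe and the Cebpd exon region held it. The composite string TGATGCAA, bound by ATF4 with a C/EBP partner, was found in 1 of 21 (4.76%), in the region further into Cebpb, against 4.01%. A match is a string of letters and was not tested for binding, and none found says only that the letters are not in these listed regions. The median GC content was 55.0% against 49.0% over the list, and the median width was 481 bp against 400 bp.

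Of the members, Cebpa, Cebpb, Cebpg and Ddit3 had an entry in the RefSeq promoter table, and none of these 4 held the C/EBP string in the 250 bases upstream of the start, against 16.5% of all promoters in the table. Ddit3 held 1 AP-1 string there, against 4.46%. The printed Cebpa and Cebpb flanks have a GC content of 66.4% and 81.6%.

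**Figure D4:**
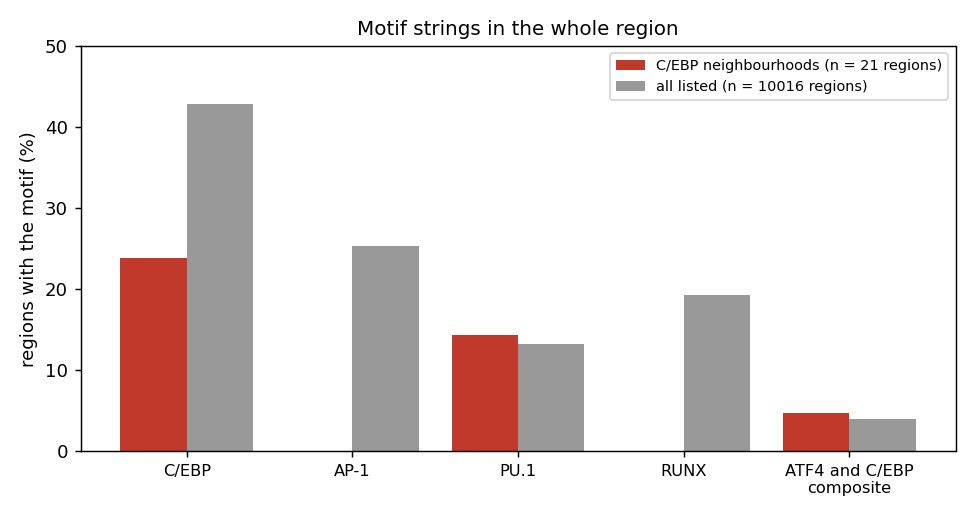
Share of regions, in percent from 0, that hold each searched string, for the 21 neighbourhood regions and for all 10016 listed regions. The C/EBP string stands at 23.8% against 42.9% (25.0% against 35.3% among rises alone), and the AP-1 and RUNX strings at 0 against 25.3% and 19.3%.

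The same windows were then set around 20 genes that pair with C/EBP proteins, bind like sites or control them. Of these, 16 had a listed region within 100 kb, against 63.5% of protein-coding genes, and Atf4, Hlf, Cop1 and Ppp1r15a had none. The 35 regions were 21 higher and 14 lower, with a median change of 0.88, against 60.3% higher and a median of 0.98 in the whole list. Within 10 kb, 8 of the 20 genes had a region, against 25.0% of protein-coding genes, and these were 4 higher and 4 lower, with the same 60.3% as background. Among the bZIP factors, the region at Atf3, a stress-induced factor, was higher by 1.67 (3.60 in WT and 5.27 in dKO). The region at Nfil3 went from 8.70 to 8.11, a change of -0.59. The region at Tef, a PAR bZIP factor, went from 8.80 to 8.09, a change of -0.71. The region near its relative Dbp went from 6.43 to 3.24, a change of -3.19, but lies in Sphk2, 785 bp from that gene's start.

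Among the regulators were the tribbles genes Trib1 and Trib2, whose proteins send C/EBPα to degradation. The region within 10 kb of Trib1 went from 5.90 to 4.43, a change of -1.47, but of the 5 regions within 100 kb of this gene 3 were higher and 2 lower. The region at the Trib2 start went from 5.43 to 6.54, a change of 1.11, and both regions within 100 kb were higher. Id2, a helix-loop-helix inhibitor, had a region that was higher by 1.23 (5.65 and 6.88). Calr, the gene of the chaperone calreticulin, had one higher by 0.72 (6.83 and 7.55).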

How the data were processed

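Chromatin accessibility was measured by ATAC-seq in 6 samples of 3 groups (WT, dKO and dKO-LAP*, 2 each). Per the labels and the study's methods, the authors ran PiGx for read preprocessing, Bowtie 2 for alignment to mm10, MACS for peak calling (MACS2 in the submitters' processing notes) and DiffBind 2.14.0 for the comparison of groups at a corrected P-value of 0.05. Duplicate handling, the Tn5 offset and the rule for merging peaks are not given in the sources used here. Counts of strongly amplified regions would be raised by retained duplicates, and region edges would shift by a few bases without the offset. The 2 deposited files were identical and gave 1 table of WT and dKO, so that dKO-LAP* was not analysed here. The authors' deposited log2 values are the mean of normalised reads per group. The deposited table also holds the authors' fold change, p-value and false discovery rate, of which only the last was read, to check that no region exceeded 0.05.

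From the group means, the change (dKO minus WT), reads and reads per kb were computed in Python 3.11.15 with pandas 2.3.3 and numpy 2.4.6. The lowest log2 mean was -0.15, and a floor of 3 reads per library lay at 1.435. Folds with the lower group at or under it are bounds, and bounds and intervals cover counting error only. Annotation was GENCODE M21, with coordinates counted from 1, and sequence was GRCm38.p6, whose chromosomes are those of mm10. For Ddit3 the annotation has 2 entries of that symbol, which were joined. Overlap and motif searches were tested on simulated data. The single values of 1 neighbourhood region, which is in the counts, are not reported here, and it is not marked in the figures. No test was run on differences, since no value per library was given.

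The members, lists and strings were chosen with earlier results of these data known. Named are all members with each listed region except that 1, genes whose exon such a region overlaps or whose annotated start site is nearest to it, and partner genes with a region within 10 kb. By this rule Gm11475 and Gm14321 are also named, with the start sites nearest to the Cebpb regions at -98.3 kb and 58.7 kb. Spidr and Gm11476, in which regions lie, Trib3 and the 4 partner genes with no region were named after their values were seen. Windows of 10, 50 and 200 kb, other overlap, level and change limits, median-subtracted changes and other motif settings were tried as alternatives.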

Additional observations from a re-analysis of the deposited data

How the results depend on the processing

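No paired analysis was possible because only 1 mean per group was given for each region, and for the same reason no replicate could be left out in turn. Both had been planned and were not run. Of 87 alternatives, 57 stayed within the set limits, 29 moved and 1 reversed. A window of 50 kb gave 11 regions, 7 higher and 6 distal, and one of 200 kb gave 26 higher and 26 distal. A window of 10 kb gave 7 regions, 3 higher and 2 distal, and turned the median change to -1.05, because the regions on Cebpa and Cebpb then made up more of the set. Subtracting the median change of all listed regions put 10 regions below that median and left a median of 0.06. Without the regions on Cebpa and Cebpb exons, 2 were lower. Counting as distal only what lay over 1 kb from every annotated start site gave 10. The full palindrome TTGCGCAA was found in 0% of neighbourhood regions, against 0.489% of all listed regions. The partner list within 10 kb had 8 regions. By gene, 15 of 42 counts moved by over 1.5 times. At 10 kb Cebpb went from 6 to 2, Cebpg from 5 to 1, Cebpa from 3 to 1, Ddit3 from 4 to 0, and Cebpd, Cebpe and Cebpz from 2 to 1. At 50 kb Cebpg, Ddit3, Cebpd, Cebpe and Cebpz each had 1. At 200 kb Cebpa had 5 and Ddit3 12. With changes of at least 1 only, Cebpe had 0. Depth per library is unknown, and a list of changed regions shows neither unchanged regions nor changes too small to be listed.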

Other observations

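Trib3, a tribbles gene of the stress response, had 7 listed regions within 100 kb, all lower in dKO, with changes from -4.40 to -1.19. It was chosen here after its values were seen. None lay within 10 kb of Trib3. The deepest fall, from 6.70 in WT to 2.30 in dKO, lay over an exon of Sox12, a SOX-family transcription factor gene, and others lay at the starts of Sox12 (7.16 and 4.96) and Zcchc3 (6.36 and 3.89). On the same chromosome, 55.6% of listed regions were higher in dKO.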
